A study of Mus musculus with 6 samples.

Results

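Transcripts of 9 regulators of muscle fibre identity were followed in skeletal muscle labelled as a knockout of PRR14, a nuclear protein. They were chosen by name as known regulators of fast or of slow, oxidative fibres, and they are 9 of the 22036 genes in the table. They are Eya1, Tbx15, Sox6 and Maf for the fast programme, Prox1, Nfatc1 and Vgll2 for the slow programme, and Ppargc1a and Esrra for oxidative metabolism. All 6 libraries carried the genotype label KO and came from muscle that had received AAV, a virus used to deliver genes, 1 month earlier. The treatment label was MEF2C-GFP in 3 libraries, where the cargo is the myogenic factor MEF2C together with the fluorescent marker GFP, and GFP in the other 3. The labels name no muscle, age, sex or promoter of the virus and give no wild-type sample. Nor do they say whether the replicates are separate animals, so the p-values reflect how far these 6 libraries scatter, which may be technical.

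Adult fibres are set apart by linked programmes. Fast glycolytic fibres use fast myosins and light chains, under factors such as EYA1, TBX15, SOX6 and MAF proteins. Slow, oxidative fibres follow nerve activity through calcium, the phosphatase calcineurin and NFATC1, with MEF2 proteins and PGC-1α (the product of Ppargc1a) acting together on slow and mitochondrial genes. The comparison asks whether the transcripts of these regulators change in knockout muscle given MEF2C.

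None of the 8 regulators that could be tested passed, and for those with the most reads the 95% interval of the change lay within 2-fold. Reads were counted per gene and are given as CPM, counts scaled to a common library size, with edgeR's TMM normalisation. Prox1 was too sparse to test, and 0 of the other 8 had an edgeR adjusted p (Benjamini-Hochberg, over 9229 genes) under 0.05, where 7 genes, 0.0758% of those tested, were called. At an unadjusted p under 0.05 the count was also 0 of 8, where 5.71% of all genes tested passed. Limma-voom called 0 of the 8, with 3 genes called in all (0.0325% of those tested). DESeq2 gave an adjusted p for 4 of the 8 and called 0 of them, with 27 genes called in all (0.293%). The 95% interval of the fold change stayed within 2-fold in either direction for 7 of the 8, against 75.9% of all genes tested.

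Promoter windows show what sequence lies around start sites listed for some of these genes. The RefSeq table (GRCm38.p6) gave windows of 300 bases, from 250 before to 50 after a start site, for Sox6, Ppargc1a, Vgll2, Esrra and Prox1. Printed here are the window of Sox6 with a MEF2 match and the single windows of Ppargc1a and Vgll2. Ppargc1a and Vgll2 are the regulators with the most negative fold changes. The Sox6 window lies inside the gene, which spans 115470872 to 116038796 on the minus strand, and not at its outermost start. The printed windows are given 5′ to 3′ on the gene's strand, and capitals mark matches to any searched motif other than the E-box.
Sox6, chr7:115801560-115801859, minus strand: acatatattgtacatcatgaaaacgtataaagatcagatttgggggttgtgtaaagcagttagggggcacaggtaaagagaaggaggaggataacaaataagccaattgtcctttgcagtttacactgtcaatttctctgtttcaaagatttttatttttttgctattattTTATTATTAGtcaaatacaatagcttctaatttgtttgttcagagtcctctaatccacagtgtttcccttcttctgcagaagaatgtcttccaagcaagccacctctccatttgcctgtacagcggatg
Ppargc1a, chr5:51567676-51567975, minus strand: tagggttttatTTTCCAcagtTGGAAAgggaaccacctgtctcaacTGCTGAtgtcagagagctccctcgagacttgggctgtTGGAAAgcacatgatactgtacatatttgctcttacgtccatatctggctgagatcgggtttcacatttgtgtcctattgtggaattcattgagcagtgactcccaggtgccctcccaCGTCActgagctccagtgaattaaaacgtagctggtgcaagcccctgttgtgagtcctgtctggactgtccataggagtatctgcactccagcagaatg
Vgll2, chr10:52022252-52022551, plus strand: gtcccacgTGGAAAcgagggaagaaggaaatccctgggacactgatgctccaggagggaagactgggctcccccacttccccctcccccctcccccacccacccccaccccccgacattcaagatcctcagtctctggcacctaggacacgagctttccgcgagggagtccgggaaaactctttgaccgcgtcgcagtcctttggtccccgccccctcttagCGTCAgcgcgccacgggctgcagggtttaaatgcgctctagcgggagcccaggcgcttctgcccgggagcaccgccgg

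Each motif was searched on both strands. The consensus MEF2 site was found in 1 of 11 windows of the 5 genes. This was the Sox6 window shown, where the site starts 79 bases before that internal start. Of 32841 promoter windows in the table, 3.19% held a match. Sox6 has 6 windows in the table, and its deposited counts are per gene, so that reads from this start cannot be told from the others. The Ppargc1a window held 3 matches to TGGAAA, the core bound by NFAT proteins (21.4% of all windows hold at least 1), 1 to TGACG, the cAMP response core (20.8%), and 1 to TGCTGA, the MAF core (19.5%). The Vgll2 window held 1 match to TGGAAA and 1 to TGACG. The TEAD core CATTCC (14.7% of all windows), the ERR core AAGGTCA (4.72%), the SOX core AACAAT (10.7%) and the T-box core TCACACC (3.98%) had no match in those windows. The E-box CANNTG, the site of MyoD-type factors, was in 72.3% of all windows and in those shown 6 times for Ppargc1a, 2 times for Sox6 and 1 time for Vgll2. No binding was measured in these samples.

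As facts on the libraries, listed counts ranged from 3814844 to 3838894 in the MEF2C libraries and from 3370833 to 3900617 in the GFP libraries. For a gene with 0 counts in a library, the expected count may still be up to 3, or 0.726 to 0.957 CPM. Mef2c itself had 234, 196 and 371 CPM in the MEF2C libraries, against 223, 261 and 236 CPM in the GFP libraries, each in replicate order (log2 fold change 0.15 ± 0.22 (SE), edgeR adjusted p = 0.993). MEF2C replicate 3 alone exceeded the GFP libraries, and without it the value was -0.16. Whether the Mef2c transcript carried by the virus was part of the counting reference is not given in the sources used here, so these reads do not measure delivery, and directions hold for the libraries as labelled. Prr14 had 30, 23 and 20 counts in MEF2C libraries and 11, 12 and 15 in GFP libraries (0.72 ± 0.32, edgeR adjusted p = 0.856). The labels do not say which part of Prr14 was deleted, so these reads do not check the knockout. MEF2C replicate 3 was nearer to GFP replicate 1 (chi-square of the counts per degree of freedom 6.99) than to MEF2C replicates 1 and 2 (10.3 and 9.40), and without it 0 of the 8 regulators were called. The 8 genes that define skeletal muscle, such as Acta1 and Ckm, summed to between 105521 and 119237 CPM in MEF2C libraries and between 126420 and 149868 CPM in GFP libraries, with none at 0. Granulocyte markers summed to 1134 CPM in MEF2C replicate 1, to 4.48 and 2.42 in MEF2C replicates 2 and 3, and to 2.37, 2.23 and 71.3 in GFP replicates 1, 2 and 3.

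**Figure D1:**
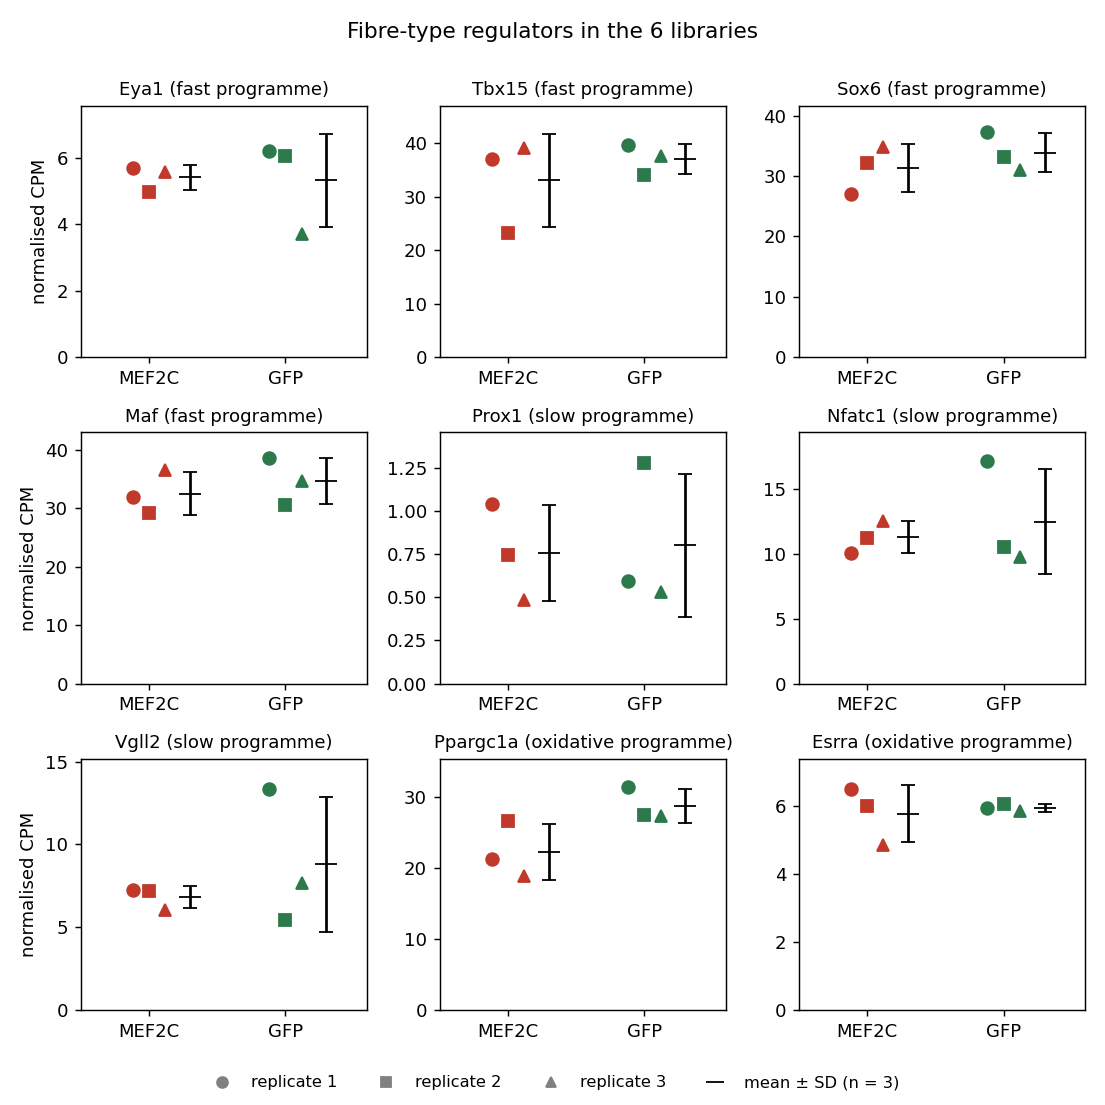
Normalised CPM of the 9 regulators in each library, MEF2C in red and GFP in green, with a symbol for each replicate and the mean ± SD (n = 3) beside them. The groups overlap in every panel except that of Ppargc1a, whose highest MEF2C library (26.6 CPM) lies just under the lowest GFP library (27.3 CPM).

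Among the regulators of the fast programme, Tbx15, a T-box factor needed in the mouse for a normal number of glycolytic fibres, had the widest spread. Tbx15 (ENSMUSG00000027868, GRCm38 chromosome 3, 99240381 to 99354259, plus strand) had 37.1, 23.2 and 39.2 CPM in MEF2C libraries, against 39.7, 34.1 and 37.6 CPM in GFP libraries. MEF2C replicate 2 was the one low library, and the other 5 lay close together. The log2 fold change was -0.17 ± 0.19 (SE; 95% interval -0.58 to 0.25; edgeR adjusted p = 0.993), and it turned to 0.03 without MEF2C replicate 2.

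Sox6, which in mouse fast fibres holds slow-fibre genes down, was even across the groups. Sox6 (ENSMUSG00000051910, chromosome 7, 115470872 to 116038796, minus strand) had 104, 129 and 144 counts in the MEF2C libraries, or 26.9, 32.1 and 34.8 CPM, against 126, 104 and 117 counts in the GFP libraries, or 37.3, 33.2 and 31.0 CPM. The lowest and the highest of the 6 libraries were MEF2C replicate 1 and GFP replicate 1, and the groups overlapped. The log2 fold change was -0.11 ± 0.17 (SE; 95% interval -0.46 to 0.24; edgeR adjusted p = 0.993), a fold between 0.725 and 1.18. A general list of 12 slow-fibre genes varied far more across the libraries. It summed to 2466, 2907 and 647 CPM in MEF2C libraries and to 444, 447 and 1031 CPM in GFP libraries. The sums overlapped, but single genes could differ from the sum. Myh7 had 74.4, 68.0 and 20.1 CPM in MEF2C libraries against 7.11, 0.319 and 3.71 CPM in GFP libraries, while some other genes of the list overlapped. Of the 12, 11 were tested, and all 11 had positive changes, with 0 called. Any relation between that sum and Sox6 was not tested.

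Maf, the large MAF protein c-MAF that with its relatives drives the fast myosin gene Myh4 in mouse muscle, had similar levels. Maf (ENSMUSG00000055435, chromosome 8, 115682942 to 115707794, minus strand) stood at 31.9, 29.1 and 36.5 CPM in MEF2C libraries, against 38.5, 30.6 and 34.7 CPM in GFP libraries. The groups overlapped, and the log2 fold change was -0.09 ± 0.16 (SE; 95% interval -0.44 to 0.26; edgeR adjusted p = 0.993). Macrophages also make c-MAF, and the 7 macrophage markers summed to between 130 and 199 CPM in MEF2C libraries and between 141 and 222 CPM in GFP libraries, with none at 0. The source of Maf reads among the cells of the tissue was not tested. In bulk samples such as these, fewer cells of a type and less RNA per cell cannot be told apart.

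Eya1, a phosphatase and coactivator of fast-fibre genes, was counted at low depth. Eya1 (ENSMUSG00000025932, chromosome 1, 14168954 to 14310235, minus strand) had 22, 20 and 23 counts in MEF2C libraries, against 21, 19 and 14 counts in GFP libraries. It averaged 5.42 ± 0.383 CPM in MEF2C libraries and 5.33 ± 1.41 CPM in GFP libraries (SD, n = 3 each). With a log2 fold change of 0.03 ± 0.31 (SE; 95% interval -0.62 to 0.69; edgeR adjusted p = 0.997), a level up to 1.62-fold higher lies inside the interval, and the sign turned without MEF2C replicate 1 (-0.01) or GFP replicate 3 (-0.18). Muscle precursors also make Eya1 in the mouse embryo, and the 5 markers of satellite cells, the adult precursors, summed to between 56.3 and 64.6 CPM in MEF2C libraries and between 62.3 and 74.7 CPM in GFP libraries.

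Of the regulators of the slow programme, Nfatc1 is the factor that calcineurin sends to the nucleus of active fibres. Nfatc1 (ENSMUSG00000033016, chromosome 18, 80606205 to 80713071, minus strand) had 39, 45 and 52 counts in MEF2C libraries, or 10.1, 11.2 and 12.6 CPM, against 58, 33 and 37 counts in GFP libraries, or 17.2, 10.5 and 9.81 CPM. GFP replicate 1 was the one high library. The log2 fold change of -0.14 ± 0.25 (SE; 95% interval -0.68 to 0.40; edgeR adjusted p = 0.993) turned to 0.14 without it. Osteoclasts also make Nfatc1, and the 7 osteoclast and bone markers summed to 215, 93.1 and 34.8 CPM in MEF2C libraries and to 34.1, 35.1 and 45.9 CPM in GFP libraries. That sum is not one of osteoclasts alone. The bone gene Ibsp gave 102, 35.4 and 0.242 CPM of it in MEF2C libraries and 0, 0 and 4.77 CPM in GFP libraries. The part of osteoclasts in the Nfatc1 counts was not tested.

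Vgll2, a muscle cofactor of TEAD proteins whose loss in mice lowers the number of slow fibres, varied most among the GFP libraries. Vgll2 (ENSMUSG00000049641, chromosome 10, 52022502 to 52028471, plus strand) had 28, 29 and 25 counts in MEF2C libraries, against 45, 17 and 29 counts in GFP libraries. These are 7.25, 7.22 and 6.05 CPM in the MEF2C libraries and 13.3, 5.42 and 7.69 CPM in the GFP libraries, where replicate 1 was highest and replicate 2 lowest of all 6. The log2 fold change was -0.37 ± 0.32 (SE; 95% interval -1.05 to 0.31; edgeR adjusted p = 0.989), the only interval of the 8 that crossed 2-fold, and it turned to 0.03 without GFP replicate 1. GFP replicate 1 was the highest of the 6 libraries for 7 of the 8 regulators tested, all but Esrra, and for 4 of the 8 when scaled to library totals in place of TMM. The 9 regulators together came to 148, 141 and 159 CPM in MEF2C libraries, against 190, 155 and 158 CPM in GFP libraries.

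Prox1, a homeobox factor of slow fibres and the defining factor of lymphatic endothelium, was near the limit of detection. Prox1 (ENSMUSG00000010175, chromosome 1, 190118035 to 190170714, minus strand) had 4, 3 and 2 counts in MEF2C libraries and 2, 4 and 2 counts in GFP libraries, and it was left out by the low-count filter. Summed over libraries these are 9 counts (exact Poisson 95% interval 4.12 to 17.1) in MEF2C and 8 counts (3.45 to 15.8) in GFP, a ratio of 0.963 after scaling, with an exact 95% interval of 0.330 to 2.87 that covers counting error only. No difference was detectable at this depth. Lymphatic endothelial markers other than Prox1 were higher as a sum, at 152, 136 and 114 CPM in MEF2C libraries against 57.5, 79.8 and 64.7 CPM in GFP libraries. Much of that sum was Ccl21a, a chemokine of lymphatic vessels, at 94.3, 81.4 and 77.2 CPM in MEF2C libraries against 24.6, 45.9 and 27.6 CPM in GFP libraries. Of the 5 markers tested 3 had positive changes: Ccl21a, Mmrn1 (1.69 ± 0.40, edgeR adjusted p = 0.274) and Lyve1 (0.77 ± 0.24, edgeR adjusted p = 0.677). Pdpn (-0.11 ± 0.27) and Flt4 (-0.01 ± 0.40) did not. For Mmrn1 and Lyve1 the groups did not overlap, as for 11.1% of all genes tested. Ccl21a alone was called higher (log2 fold change 1.37 ± 0.21 (SE), edgeR adjusted p = 0.0428), where 0.0325% of all genes tested were. It kept its call without GFP replicate 2 only. Its edgeR adjusted p was 0.0716 without GFP replicate 1 and 0.443 without GFP replicate 3. Without MEF2C replicates 1, 2 and 3 it was 0.115, 0.178 and 0.0965. The part of lymphatic cells in the Prox1 counts was not tested.

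**Figure D2:**
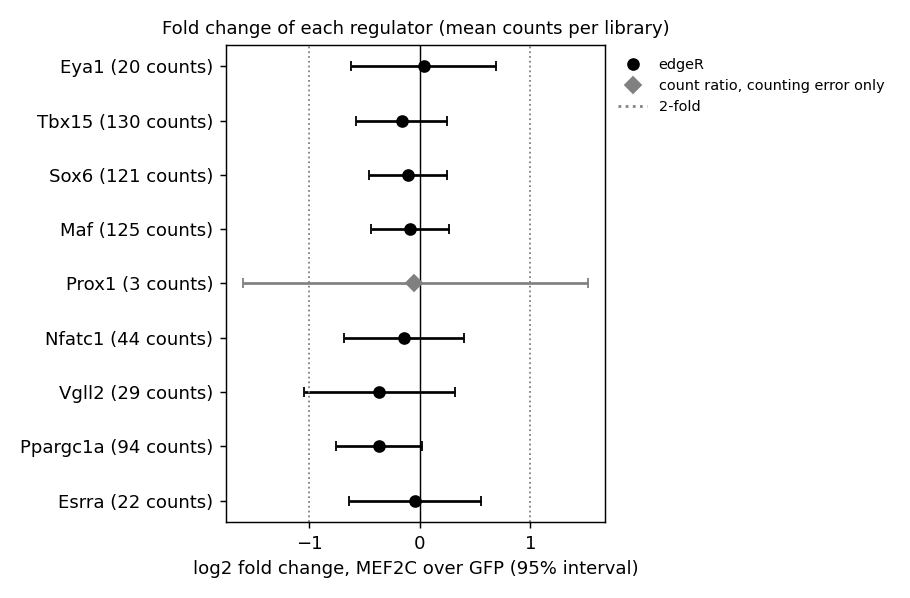
Log2 fold change of MEF2C over GFP libraries for each regulator, with its 95% interval from edgeR, and for Prox1 the ratio of summed counts with an interval for counting error alone. All intervals contain 0, and only those of Vgll2 and Prox1 cross the dotted lines at 2-fold.

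The oxidative regulator Ppargc1a came closest to the threshold. Its product PGC-1α is a coactivator of MEF2 and ERR proteins that turns on mitochondrial genes. Ppargc1a (ENSMUSG00000029167, chromosome 5, 51454250 to 51567726, minus strand) had 82, 107 and 78 counts in MEF2C libraries and 106, 86 and 103 counts in GFP libraries. Normalised, these are 21.2, 26.6 and 18.9 CPM in MEF2C libraries, against 31.4, 27.4 and 27.3 CPM in GFP libraries. All 3 MEF2C libraries lay below all 3 GFP libraries, with MEF2C replicate 2 close to the lowest of them. The groups did not overlap for 11.1% of all genes tested, and for 1 of the 8 regulators. Ppargc1a averaged 22.3 ± 3.98 CPM in MEF2C libraries and 28.7 ± 2.33 CPM in GFP libraries (SD, n = 3 each), a log2 fold change of -0.37 ± 0.18 (SE; 95% interval -0.76 to 0.02) with an unadjusted p of 0.0631 and an adjusted p of 0.904 by edgeR. The interval runs from 1.69-fold lower to 1.02-fold higher. Over 16 alternative settings the value stayed negative, between -0.52 and -0.24, and the adjusted p lay between 0.755 and 1.000.

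Esrra encodes ERRα, an orphan nuclear receptor that binds mitochondrial gene promoters together with PGC-1α. Esrra (ENSMUSG00000024955, chromosome 19, 6910977 to 6921813, minus strand) had 25, 24 and 20 counts in MEF2C libraries and 20, 19 and 22 counts in GFP libraries, or 6.48, 5.98 and 4.84 CPM against 5.93, 6.06 and 5.83 CPM. The groups overlapped, with the highest and the lowest library both in MEF2C. The log2 fold change was -0.04 ± 0.28 (SE; 95% interval -0.65 to 0.56; edgeR adjusted p = 0.995), and it turned to 0.07 without MEF2C replicate 3. Exons of Esrra overlap those of Trmt112, a methyltransferase cofactor on the opposite strand that had 368, 335 and 345 counts in MEF2C libraries and 246, 294 and 330 counts in GFP libraries. Strand use in the counting is not given in the sources used here, so reads in the overlap cannot be assigned between these genes. Exons of Maf and Prox1 also overlap annotated antisense genes, Gm15655 and Prox1os.

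The regulators were about as steady between replicates as other genes of their depth. If libraries differ only by counting, the chi-square of a gene's 6 counts per degree of freedom is about 1. It was 0.204 for Esrra, 0.456 for Prox1, 0.581 for Eya1, 1.42 for Sox6 and 1.44 for Maf, and higher for Nfatc1 (2.24), Ppargc1a (3.14), Vgll2 (3.51) and Tbx15 (4.31). These values also take in differences between the groups. Taken within groups, the value was 1.77 for Ppargc1a, 2.55 for Nfatc1, 3.24 for Vgll2 and 4.95 for Tbx15. Within groups the SD of log2 CPM was 0.16 for both Sox6 and Maf, against a median of 0.20 over the 680 and 660 genes within 0.25 log2 units of their mean count. Esrra was the steadiest for its depth, with an SD of 0.15 that 95.2% of 1047 such genes exceeded. Tbx15 and Vgll2 were the least steady, with SDs of 0.30 and 0.47 that 18.0% and 22.2% of such genes exceeded.

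**Figure D3:**
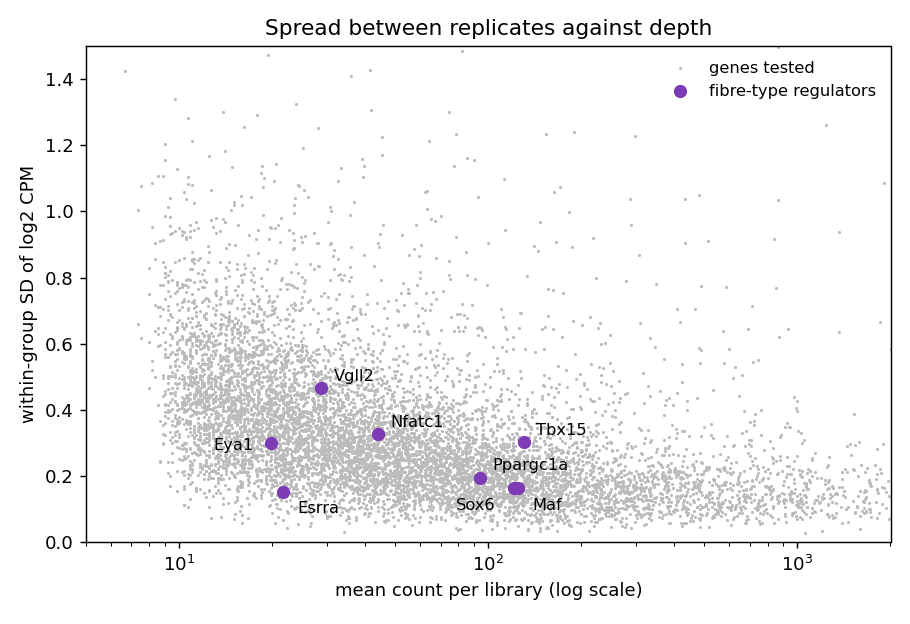
Within-group SD of log2 CPM against mean count per library (log scale) for genes tested, in grey, and the 8 regulators that were tested, in purple; the axes leave out the most abundant and the most variable genes. The regulators lie inside the cloud of genes of their depth, from Esrra at 0.15 to Vgll2 at 0.47.

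As a list, the 8 regulators tested had a median log2 fold change of -0.13, where the median over all 9229 genes was 0.01. Only Eya1 was positive, against 52.2% of all genes tested. With library totals in place of TMM the median of all genes moved to 0.14, that of the regulators to 6.66e-05, and 4 of the 8 were positive. Sox6, Maf and Esrra turned positive with that shift of all genes and stayed below the median of all genes. The size of the changes ran from the upper to the lower part of genes of like depth. For Ppargc1a, 10.7% of genes of like count had a larger absolute log2 fold change, for Vgll2 21.6%, and for Eya1 92.9%. These reads come from long, amplified cDNA, and 7 of the 9 regulators have a longest transcript above the median of 3302 bases over genes tested, up to 8668 bases for Sox6. A correction for transcript length, chosen after seeing the data, gave -0.41 for Ppargc1a (unadjusted p = 0.0478 and adjusted p = 0.785 by edgeR) and -0.19 for Sox6 (adjusted p = 0.921).

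For the 4 regulators with a mean of at least 50 counts, the nearest profiles over the 6 libraries were looked up among 4427 other genes, as a description. Nearness is the root-mean-square difference of log2 CPM centred per gene. Many genes had a like profile: between 335 (Maf) and 1161 (Ppargc1a) lay nearer than a flat profile did. Whether the nearest genes are related to the regulators was not tested. Sox6 was nearest to Jph2 (0.036), which encodes the triad protein junctophilin 2, then to Slc44a2 and Ddrgk1. Ppargc1a was nearest to Eif4h (0.070), Pafah1b2 and Tpm2, the last encoding beta-tropomyosin. Tbx15 was nearest to Eif4g3 (0.069), Sppl2a and Prkar2a, and Maf to Yipf5 (0.035), Klhdc2 and Dnajb6.

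The partners and relatives of these regulators gave 0 calls as well, by edgeR over all genes. The relatives of SOX6, TBX15, MAF and PROX1 had 3 of 9 members tested, with a median log2 fold change of 0.07, and 1 of them, the MAF family gene Mafa, had an unadjusted p under 0.05. Mafa stood at 6.22, 5.98 and 6.53 CPM in MEF2C libraries, against 11.0, 15.0 and 10.9 CPM in GFP libraries. The groups did not overlap, and the log2 fold change was -0.97 ± 0.25 (SE, edgeR adjusted p = 0.413). Whether the changes of Maf and Mafa differ was not tested. Myh4, the fast myosin that large MAF proteins drive, stood at 12800 ± 2451 CPM in MEF2C libraries and at 15727 ± 1906 CPM in GFP libraries (SD, n = 3 each; log2 fold change -0.30 ± 0.15 (SE), edgeR adjusted p = 0.904).

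The partners of PGC-1α and ERRα, 20 of 22 tested, had 10 positive changes and a median log2 fold change of 0.01. Esrrg, which encodes ERRγ, a receptor abundant in oxidative fibres, had 28, 29 and 16 counts in MEF2C libraries against 10, 7 and 14 counts in GFP libraries. It averaged 6.12 ± 1.94 CPM in MEF2C libraries and 2.97 ± 0.738 CPM in GFP libraries (SD, n = 3 each), with a log2 fold change of 1.02 ± 0.36 (SE, edgeR adjusted p = 0.766). MEF2C replicate 3 (3.87 CPM) barely lay above GFP replicate 3 (3.71 CPM). Crtc2, a coactivator of CREB on the Ppargc1a promoter, stood at -0.66 ± 0.29, and Gabpa, a factor of mitochondrial genes, at -0.31 ± 0.21 (edgeR adjusted p = 0.856 and 0.948). None of these 3 passed the test.

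**Figure D4:**
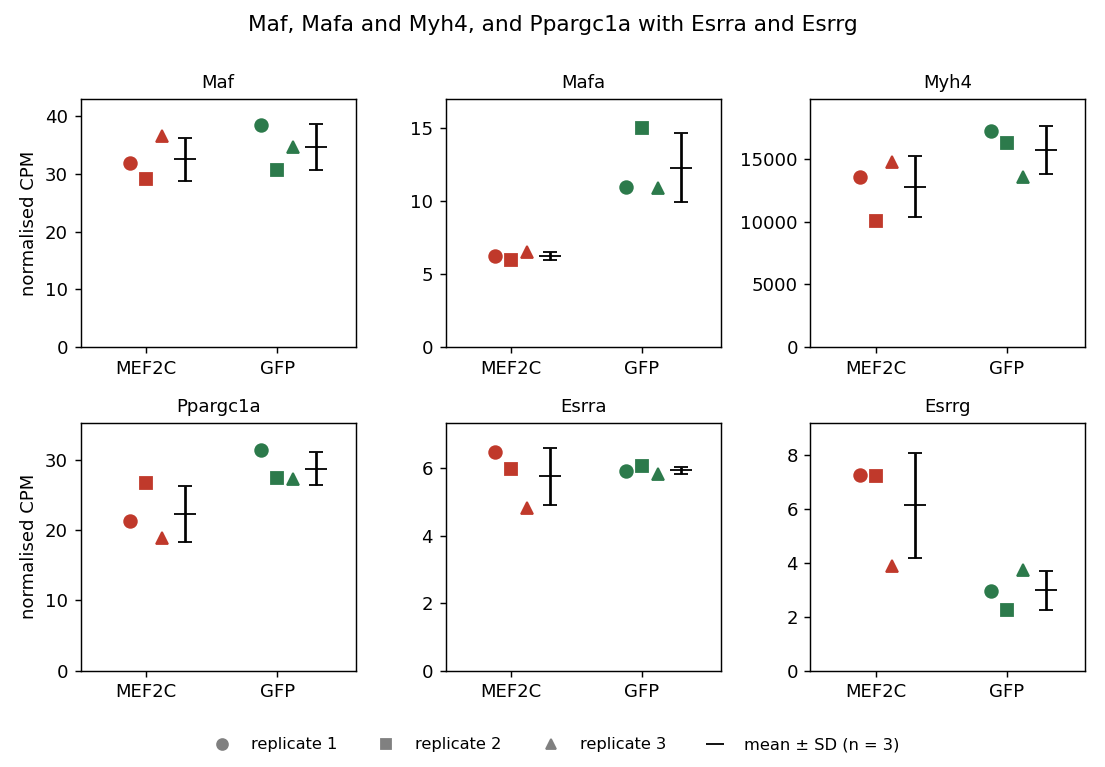
Normalised CPM by library for Maf, Mafa and Myh4 in the upper row and for Ppargc1a, Esrra and Esrrg in the lower row, with the mean ± SD (n = 3). Mafa lies between 5.98 and 6.53 CPM in MEF2C libraries and at 10.9 CPM or more in GFP libraries, while Maf, Myh4 and Esrra overlap between the groups.

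The targets of PGC-1α and ERR proteins, all 28 of them tested, were evenly split, with 14 positive and a median log2 fold change of 0.00127. Ucp3, a mitochondrial carrier, stood at 23.3 ± 6.47 CPM in MEF2C libraries and at 35.4 ± 4.72 CPM in GFP libraries (SD, n = 3 each), a log2 fold change of -0.61 ± 0.21 (SE, edgeR adjusted p = 0.749). Uqcrc1, a subunit of respiratory complex III, stood at -0.31 ± 0.13 and Cycs, cytochrome c, at -0.24 ± 0.13 (edgeR adjusted p = 0.841 and 0.928). In sum these targets came to 42393, 41412 and 33877 CPM in MEF2C libraries, against 35817, 39336 and 41841 CPM in GFP libraries, and the groups overlapped.

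The calcineurin and NFAT list had 13 of 17 members tested, 8 positive, with a median log2 fold change of 0.04. Rcan1, a calcineurin inhibitor that is itself induced by NFAT, had 208, 206 and 118 counts in MEF2C libraries and 33, 91 and 141 counts in GFP libraries (0.80 ± 0.53, edgeR adjusted p = 0.965). GFP replicate 3 lay above MEF2C replicate 3. Myoz2, the slow-fibre calsarcin that binds calcineurin at the Z-disc, stood at 209, 289 and 57.6 CPM in MEF2C libraries and 71.7, 69.2 and 111 CPM in GFP libraries, and its fast-fibre relative Myoz1 at 953, 1270 and 1726 CPM against 2002, 1633 and 1446 CPM. The log2 fold changes were 1.14 ± 0.67 for Myoz2 and -0.36 ± 0.22 for Myoz1 (SE, edgeR adjusted p = 0.951 and 0.930).

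The partners and relatives of EYA1, 2 of 8 tested, had Eya4 at 0.18 ± 0.33 and Six4 at -0.50 ± 0.33 (log2 fold change ± SE, edgeR adjusted p = 0.993 and 0.944). Eya4 was highest in MEF2C replicate 3, at 13.3 CPM, where the other libraries lay at 9.07 CPM or less. Of the VGLL and TEAD partners 2 of 7 were tested, with Tead1, a DNA-binding partner of VGLL2, at 0.32 ± 0.20 and Vgll4 at -0.15 ± 0.18 (edgeR adjusted p = 0.928 and 0.993).

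**Figure D5:**
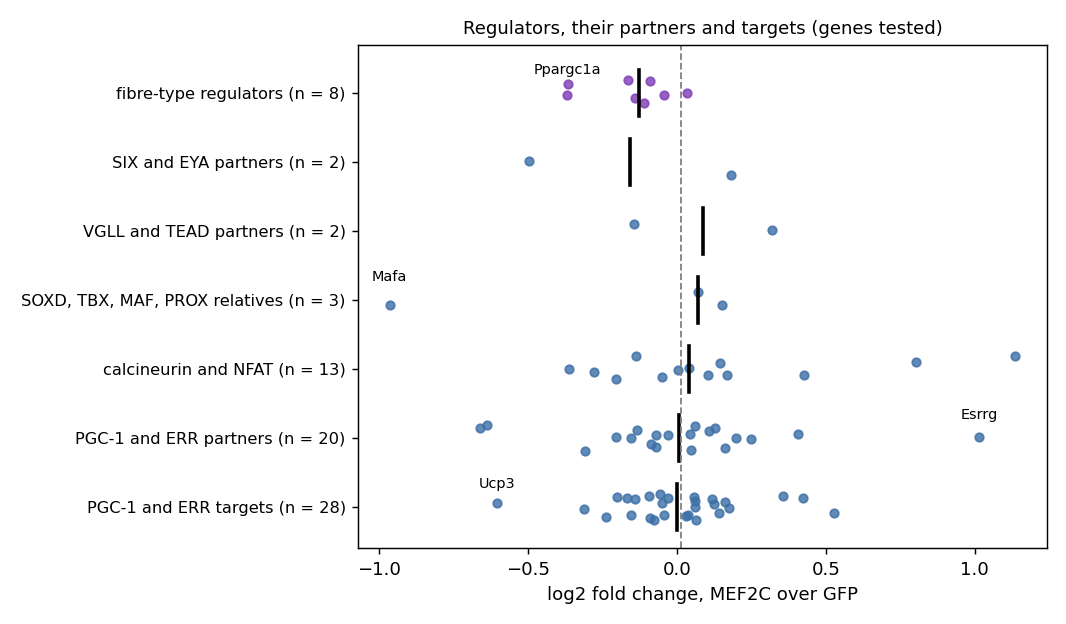
Log2 fold change of MEF2C over GFP libraries for the regulators and the tested members of the partner, relative, calcineurin and target lists, one point per gene, with black bars for the list medians and a dashed line for the median of all genes (0.01). The regulators sit between -0.37 and 0.03, and the other lists shown run from Mafa (-0.97) to Myoz2 (1.14); none of the genes plotted passed the test.

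Lists of fast-fibre and slow-fibre genes held 3 of the 7 genes called in all. These lists were chosen with earlier results of these data known, so the counts below are a description and no independent support. Whether the regulators act on these genes here was not tested. In the fast-fibre list of 12, all tested, 3 were lower and 0 higher by edgeR, where 0.0433% and 0.0325% of all genes were: Pvalb, the calcium buffer parvalbumin (log2 fold change -0.88 ± 0.12, adjusted p = 0.0162), and the light chains Mylpf (-0.79 ± 0.11, 0.0189) and Myl1 (-0.78 ± 0.12, 0.0342). The list had a median of -0.33 and summed to between 139218 and 145609 CPM in MEF2C libraries and between 185526 and 212324 CPM in GFP libraries. In the slow-fibre list 11 of 12 were tested, all positive with a median of 3.12, and 0 were called. Of the 11, 8 had an unadjusted p under 0.05 by edgeR, where 5.71% of all genes tested did. Myh7, the slow myosin, and Myl3, a slow light chain, stood at 3.83 ± 0.92 and 3.51 ± 0.82, and Atp2a2, the slow calcium pump, at 1.21 ± 0.23 (edgeR adjusted p = 0.749, 0.749 and 0.120). For these 3 genes, named for the smallest p of the list, the groups did not overlap, as for 11.1% of all genes tested. Pvalb lost its call without MEF2C replicate 2, GFP replicate 2 or GFP replicate 3 (adjusted p between 0.129 and 0.169). Mylpf lost it there and without MEF2C replicate 1, and Myl1 without any library but MEF2C replicate 3. With non-robust dispersion none of the 3 was called. Leaving out GFP replicate 3, GFP replicate 2 or MEF2C replicate 2 brought the calls in these 8 lists to 0, leaving out MEF2C replicate 1 to 1 and leaving out MEF2C replicate 3 to 9.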

How the data were processed

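Per the labels' protocols, 1 µg of total RNA from frozen tissue was made into Oxford Nanopore cDNA libraries with 14 PCR cycles, without molecular identifiers. The tools in the submitters' processing notes are minimap2 and DESeq2 1.6.3, and the build is GRCm38; which tool counted the reads, on which annotation and with which strand setting, is not given in the sources used here. Per the file headers, the deposited table has gene-level read counts and CPM scaled by the authors to whole libraries, used only to recover library totals. The 30 rows naming no gene held 0 counts and were left out.

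Counts were tested with edgeR 4.0.16 (R 4.3.3; filter by group with a minimum count of 10, TMM, robust quasi-likelihood, no covariate), 3 MEF2C libraries against 3 GFP libraries, with Benjamini-Hochberg adjustment over 9229 genes. The fit was tested on simulated data. Standard errors and 95% intervals came from the F statistic. Normalised CPM use TMM-scaled listed totals, and log2 CPM used for spread and profiles add 0.5 reads. Coordinates are from GENCODE vM21, with all 9 regulators matched, and promoters from RefSeq. Precision is set by between 2 and 162 counts per library for each regulator; intervals on counts cover counting error only, since PCR duplicates cannot be removed. Chi-square per degree of freedom between libraries of a group lay between 4.95 and 10.3, so no pair agreed within counting noise; this does not show that they came from separate animals.

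The regulators and lists were chosen with earlier results of these data known, and some genes of the lists are not reported here. Named are all 9 regulators, Mef2c and Prr14, and from each list those called, else at most 3 by smallest p. Marker lists are given by their sums, with some single markers also named. Schwann cell, adipocyte, fibro-adipogenic and blood endothelial sums are in the closing section. Alternatives were DESeq2 1.42.0 size factors and Wald test, limma-voom (limma 3.58.1), library totals, scaling that left out the 50 most abundant genes, no filter and a strict filter (1 CPM in 3 libraries, mean of 20 counts), non-robust dispersion, a replicate block and leaving out each library. A loess correction on transcript length (span 0.3) was added after seeing the data.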

Additional observations from a re-analysis of the deposited data

How the results depend on the processing

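Under no alternative did a test call any of the regulators: the count was 0 under all 16 settings, with at most 1 at an unadjusted p under 0.05 (Ppargc1a, without MEF2C replicate 2 and after the length correction). Of 127 values of single regulators 9 had the other sign. With library totals, where the median of all genes was 0.14, these were Sox6 (0.019), Maf (0.035) and Esrra (0.081). Leaving out a library gave ranges of -0.18 to 0.15 for Eya1, -0.31 to 0.034 for Tbx15, -0.14 to 0.067 for Esrra, -0.30 to 0.14 for Nfatc1, -0.61 to 0.035 for Vgll2 and -0.16 to 0.33 for Mef2c. The median of the regulators was 6.66e-05 with library totals and lay between -0.21 and -0.04 with a library left out.

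The background count of 7 genes (3 higher, 4 lower) was 4 without the 50 most abundant genes (1 higher, 3 lower), 6 with library totals (4 higher, 2 lower), 35 with no filter, 3 with the strict filter, 27 by DESeq2, 3 by limma-voom and 0 with non-robust dispersion, where 557 genes had an unadjusted p under 0.05; with a library left out it ran from 0 to 22, with 386 genes at an unadjusted p under 0.05 where it was 0 (without GFP replicate 3). Calls among the 8 related lists, 3 in all, were 11 by DESeq2, 5 with no filter, 0 with non-robust dispersion, 0 with the replicate block and 0 to 9 with a library left out. The cause of these shifts was not tested. With the replicate block 2 genes were called; same-numbered libraries did not deviate together (r across genes -0.23, 0.04 and -0.25), and MEF2C replicate 3 went best with GFP replicate 1 (0.31). Depth limits Prox1, Esrra, Eya1 and Vgll2 most, with 2 to 45 counts per library.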

Other observations

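Markers of further cell types were summed as a description of what the tissue samples held beside the regulators. Blood endothelial markers, 6 genes, summed to between 232 and 265 CPM in MEF2C libraries and between 217 and 235 CPM in GFP libraries. Fibro-adipogenic markers, 5 genes led by Dcn, summed to between 1416 and 1546 CPM in MEF2C libraries and between 1534 and 1635 CPM in GFP libraries. Schwann cell markers, 5 genes, summed to between 90.3 and 139 CPM in MEF2C libraries and between 122 and 155 CPM in GFP libraries. Adipocyte markers, 5 genes, summed to 61.9, 191 and 84.7 CPM in MEF2C replicates 1, 2 and 3 and to 45.9, 68.0 and 59.9 CPM in GFP replicates 1, 2 and 3. Brown fat also uses Ppargc1a. Ucp1, a brown-fat gene in this list, had 0, 74 and 4 counts in MEF2C replicates 1, 2 and 3. In GFP replicates 1, 2 and 3 it had 0, 1 and 0 counts. MEF2C replicate 2 was also the MEF2C library with the most Ppargc1a (26.6 CPM). The part of fat in the Ppargc1a counts was not tested.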
